A study of Homo sapiens with 18 samples.

Results

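HCC827 is an established human lung adenocarcinoma cell line that carries an activating deletion in EGFR, the epidermal growth factor receptor, and depends on that receptor for growth. The 6 HCC827 arrays of the series are described here, 3 of parental cells and 3 of cells that had gone through the epithelial-mesenchymal transition (EMT), out of 18 arrays that also cover A549 and NCI-H358, both established lung cancer lines. They were chosen by their labels alone, which name the line and the state, and all 19849 genes of the deposited table were used. Mesenchymal cells had been kept in 2 ng/ml TGFβ for 3 weeks per the labels, although the study's methods give a range that reaches beyond this for HCC827. They were moved to medium without TGFβ on the day before lysis, so the arrays show cells after a long exposure and a short withdrawal. Parental cells are the same line in the same RPMI medium with serum and glutamine. Each line stands for 1 genotype in culture. The labels do not say how the 3 arrays of a group arose. For its array heatmap the study states that 3 distinct biological samples were prepared in parallel. The p-values therefore measure the spread between samples made on 1 occasion.

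EMT is the loss of cell-cell junctions and apical-basal polarity together with a gain of a motile, matrix-producing state. TGFβ drives it through SMAD proteins, which act with the ZEB and SNAIL transcription factors to silence epithelial genes such as CDH1. In lung cancer cells that depend on EGFR, the transition is known for accompanying a loss of sensitivity to EGFR inhibitors.

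Signal is given on the log2 scale of RMA (robust multi-array average), on which 1 unit is a doubling, and each gene was read by 1 probe set. Levels of different genes cannot be set against each other on this scale, because probe sets differ in how brightly they bind. The 6 arrays had medians of 6.36 to 6.47. Correlations across genes were 0.9937 to 0.9978 within a state and 0.9351 to 0.9467 between states. Parental replicate 1 lay farthest from its group mean, with a standard deviation over all genes of 0.171 against 0.110 to 0.147 in the other 5 arrays. Of 13 measured blood cell markers, none passed a 2-fold change with an adjusted p below 0.05 in limma, as 11.5% of all genes did. Their mean signal was 4.73 to 4.84 in parental and 4.82 to 4.88 in mesenchymal arrays. With so few markers, 7 of them below a mean of 5 in parental cells, a count of none says little.

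The label of EMT was first set against its textbook markers. CDH1, which encodes E-cadherin of the adherens junction, had a signal of 13.09, 13.08 and 12.999 in the parental arrays and 10.50, 9.89 and 9.93 in the mesenchymal arrays. EPCAM, an epithelial adhesion molecule, lay at 13.72, 13.53 and 13.55 before and at 11.07, 10.79 and 10.89 after. Both genes were lower in every mesenchymal array than in any parental array, and both were still far above the dimmest probe sets. CDH2, which encodes N-cadherin, rose from 4.96, 4.88 and 4.99 to 8.32, 8.12 and 8.18. ZEB1, a repressor of epithelial genes, rose from 5.83, 6.15 and 6.07 to 10.23, 10.19 and 10.19. VIM, which encodes the intermediate filament vimentin, was read by a dim probe set and rose from 3.50, 3.41 and 3.73 to 5.47, 5.54 and 5.71. The changes in limma were -2.95 (SE 0.14, adjusted p 1.92e-11) for CDH1, 3.26 (SE 0.07, adjusted p 4.94e-16) for CDH2 and 4.18 (SE 0.11, adjusted p 1.45e-14) for ZEB1. SNAI1, the SNAIL factor, moved by 0.85 (SE 0.12), which is under 2-fold. The groups did not overlap for any of these 6 genes, as for 51.2% of all genes, and an exact two-sided permutation test of 3 against 3 arrays gave its smallest possible p, 0.1, for each.

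**Figure D1:**
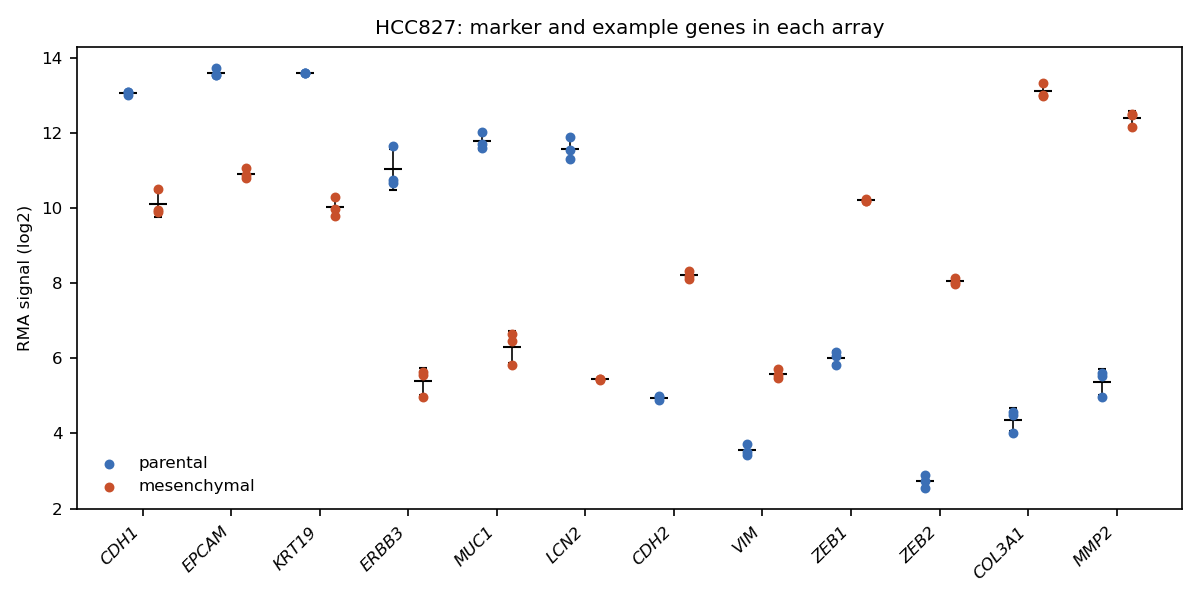
RMA signal (log2) of 12 genes in each HCC827 array, with parental arrays in blue, mesenchymal arrays in orange and black marks for the mean and SD of 3 arrays. The 6 genes on the left were lower and the 6 on the right higher in all mesenchymal arrays, with COL3A1 moving from a mean of 4.36 to 13.10.

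To describe the whole response, genes were called under a strict rule, an adjusted p below 1e-05 with a change above 5-fold, and under a broad rule, an adjusted p below 0.05 with a change above 2-fold. Under the strict rule 585 of 19849 genes changed (2.95%), of which 262 (1.32%) were higher and 323 (1.63%) lower in mesenchymal cells. Under the broad rule 2278 genes changed (11.5%), 971 (4.89%) higher and 1307 (6.58%) lower. KANK4, a regulator of the cortical cytoskeleton, and COL3A1, a fibrillar collagen, had the largest increases, 8.83 (SE 0.10) and 8.74 (SE 0.13) on the log2 scale. FGB, the fibrinogen beta chain, and TSPAN8, a tetraspanin of epithelial membranes, had the largest decreases, -6.81 and -6.26 (SE 0.15 for each).

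Genes were divided by their mean signal over the 6 arrays, which places a gene that crosses from dim to bright, or back, in the middle of the range by construction. Among genes in the lowest quartile, 3.16% passed the broad rule. In the second quartile 253 of 4962 genes were broadly higher and 341 lower, and in the brightest, also of 4962 genes, 262 were higher and 351 lower. The third quartile, between 6.44 and 8.46, held 383 higher and 531 lower genes (18.4%). Of the 500 brightest probe sets, 12 were broadly higher and 24 lower in all, and under the strict rule 0 were higher and 4 lower. The strictly higher genes moved from a median signal of 5.10 in parental cells to 8.66 in mesenchymal cells. Strictly lower genes mirrored this, with a median of 8.70 before and 5.39 after.

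Some genes crossed the whole way from dim to bright. A gene was counted as switched on when all 3 parental arrays were below 5 and all 3 mesenchymal arrays above 7, and as switched off in the reverse case. There were 68 genes switched on and 51 switched off. RMA values carry no detection call and dim signal is partly background, so a fold from or to a signal below 5 is a ratio of signals that may understate the change in RNA. The brightest after the switch were COL3A1, KANK4, PLPP4, WNT5A and HS3ST3B1. PLPP4, a lipid phosphatase, went from 4.06, 4.05 and 4.04 to 11.04, 11.03 and 11.38. WNT5A, a ligand of noncanonical WNT signalling, went from 4.29, 3.76 and 4.08 to 10.58, 10.50 and 10.49. The gap between the states of these genes follows from the rule that picked them. The brightest before being switched off were FGB, PROM2, SHOC1, MPZL2 and TSPAN8. FGB fell from 11.24, 11.08 and 10.82 to 4.27, 4.28 and 4.17. PROM2, a prominin of membrane protrusions in epithelial cells, fell from 10.49, 9.80 and 9.77 to 4.83, 4.41 and 4.72. Of the switched-on genes 7 passed the strict rule in the same direction in all 3 lines, and of the switched-off genes 2 did.

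**Figure D2:**
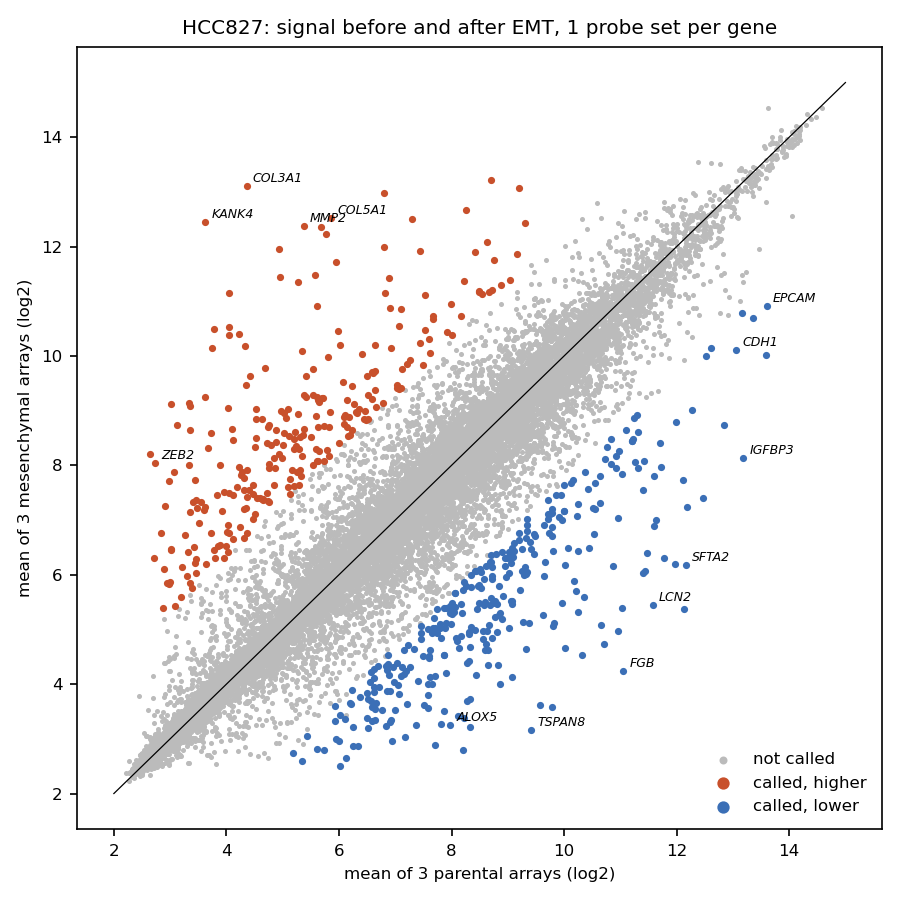
Mean signal (log2) of each gene over the 3 mesenchymal arrays against that over the 3 parental arrays, with strictly called genes in orange (262 higher) and blue (323 lower) and all others in grey. Genes called higher had a median parental signal of 5.10, and those called lower one of 8.70.

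The genes were then read by function, with 31 lists that name 754 symbols, 746 of them in the table. Over all genes the median change was 0.01, with 4.89% broadly higher and 6.58% broadly lower, and each list is read against these shares.

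Of 12 EMT transcription factors 4 rose and none fell under the broad rule, with a median change of 0.66. ZEB2, the partner of ZEB1, rose from 2.74, 2.89 and 2.53 to 7.97, 8.14 and 8.03, a change of 5.32 (SE 0.11, adjusted p in limma 7.16e-16) from a signal among the dimmest. TCF4, a basic helix-loop-helix factor, rose by 2.56 (SE 0.13). SNAI2, the factor SLUG, had 7.63, 8.72 and 8.81 in the parental arrays and 9.66, 9.69 and 9.60 in the mesenchymal arrays. Its 1.26 (SE 0.22) depended on parental replicate 1, without which the change was 0.88 and under 2-fold. TWIST1 and PRRX1, 2 further EMT inducers, stayed under 2-fold at 0.33 and 0.54.

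Epithelial transcription and splicing factors went the other way, with 14 of 24 lower and 1 higher and a median of -1.55. ELF3, an ETS factor of epithelia, fell from 11.57, 11.29 and 11.34 to 6.19, 6.13 and 5.77. EHF, its close relative, fell by 5.09 (SE 0.14). ESRP1 and ESRP2, the splicing regulators that set epithelial isoforms, fell by 4.95 (SE 0.11) and 4.14 (SE 0.18). The single member that rose was QKI, an RNA-binding protein that promotes mesenchymal splicing, with 4.98, 5.34 and 5.33 before and 8.57, 8.61 and 8.64 after. NKX2-1, the lineage factor of lung adenocarcinoma, did not pass the broad rule at 0.46 (SE 0.19, adjusted p in limma 0.056).

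Junction and polarity genes fell broadly. Of 52 members 31 were lower and 1 higher, and 21 were strictly lower. The share lower was 12 of 16 for tight junction genes, 7 of 11 for polarity and sorting genes, 4 of 8 for adherens junction genes, 4 of 10 for desmosome genes and 4 of 7 for membrane serine proteases and their inhibitors. RAB25, a small GTPase of apical recycling, fell from 10.94, 10.46 and 10.56 to 5.05, 5.01 and 5.20, a 47.3-fold change. MAL2, which serves transport to the apical membrane, fell 33.5-fold, and MYO5B, an unconventional myosin that moves recycling endosomes, 11.9-fold. PKP2, a desmosomal plakophilin, fell by 3.70 (SE 0.16) on the log2 scale. The member that rose was DSC3, a desmocollin, at 2.37 (SE 0.12). Keratins behaved in a similar manner, with 8 of 17 lower, 6 of them among the 8 simple epithelial keratins. KRT19, a keratin of simple epithelia, fell from 13.60, 13.59 and 13.59 to 10.29, 9.98 and 9.79. KRT14, a basal keratin, was the 1 keratin that rose, by 2.13 (SE 0.15).

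Promoters of the junction genes were searched for the sequences CACCTG and CAGGTG, which are each other's reverse complement and form the E-box that ZEB and SNAIL factors are known to bind. The promoter was the window from 250 bases before to 50 bases after the start of the gene in RefSeq (GRCh38.p14), read on the gene's own strand. The 3 members shown here fell strictly and held the most matches among members with a listed promoter, 3 each, which are printed in capitals. MYO5B lies on the minus strand at chr18:50195098-50195397, AP1M2, an adaptor subunit for basolateral sorting, on the minus strand at chr19:10587263-10587562, and PATJ, a scaffold of the tight junction, on the plus strand at chr1:61742230-61742529.
MYO5B: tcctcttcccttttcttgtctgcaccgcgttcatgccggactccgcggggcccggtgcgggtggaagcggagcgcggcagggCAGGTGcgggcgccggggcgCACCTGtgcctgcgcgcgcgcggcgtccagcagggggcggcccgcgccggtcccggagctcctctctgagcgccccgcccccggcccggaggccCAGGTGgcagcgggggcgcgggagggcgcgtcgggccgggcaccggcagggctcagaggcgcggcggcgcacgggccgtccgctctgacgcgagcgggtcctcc
AP1M2: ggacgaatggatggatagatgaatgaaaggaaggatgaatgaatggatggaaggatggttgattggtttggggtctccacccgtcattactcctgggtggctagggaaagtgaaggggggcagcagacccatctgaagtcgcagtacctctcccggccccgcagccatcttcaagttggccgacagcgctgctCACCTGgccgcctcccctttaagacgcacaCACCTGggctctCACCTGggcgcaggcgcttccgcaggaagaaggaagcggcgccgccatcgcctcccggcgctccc
PATJ: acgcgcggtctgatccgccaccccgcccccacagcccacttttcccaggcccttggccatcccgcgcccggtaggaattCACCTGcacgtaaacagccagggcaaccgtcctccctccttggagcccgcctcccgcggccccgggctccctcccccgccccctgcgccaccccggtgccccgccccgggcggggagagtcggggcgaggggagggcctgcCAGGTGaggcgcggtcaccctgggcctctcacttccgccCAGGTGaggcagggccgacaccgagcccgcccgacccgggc
Counted from the start of the gene, the matches began at -168, -148 and -54 in MYO5B, at -57, -27 and -15 in AP1M2, and at -171, -30 and 10 in PATJ (counted past the start). At least 1 match was found in 20.6% of all 27305 listed promoters and in 19.6% of the 15018 promoters of genes in the table. Among strictly lower genes of HCC827 the share was 35.7% (81 of 227 with a listed promoter), among strictly higher genes 11.1% (21 of 190), and among strictly lower junction genes 54.5% (6 of 11). Only 11 of the 21 strictly lower junction genes had a listed promoter, and CDH1 was not among them. A match is a string of letters and not a measured binding site.

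Of 29 mesenchymal adhesion and cytoskeleton genes 14 rose, none fell and 15 did not pass. Contractile genes made up 9 of the 14, while of 9 cadherins and adhesion genes 2 rose. TAGLN, the actin-binding protein transgelin, rose from 5.23, 5.51 and 5.53 to 9.73, 9.52 and 9.64. TPM1, a tropomyosin, rose by 2.79 (SE 0.11), and NES, which encodes nestin, by 2.28 (SE 0.25). In contrast to these, integrins and laminins split, with 3 of 23 higher and 5 lower. ITGB3 and ITGA5, integrin chains that bind fibronectin and vitronectin, rose by 2.87 (SE 0.19) and 2.70 (SE 0.10), while the epithelial chains ITGB6 and ITGB4 fell by 2.42 (SE 0.15) and 2.07 (SE 0.09).

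The extracellular matrix showed some of the largest increases. Of 26 collagens 14 were higher and 4 lower, and of these 10 were strictly higher. COL3A1 rose from 4.49, 4.01 and 4.58 to 12.98, 13.01 and 13.31, a change of 8.74 from a dim signal (adjusted p in limma 1.41e-17). COL5A1, another fibrillar collagen, rose 102-fold, COL1A1, the main chain of type I collagen, 21.3-fold, and COL12A1, which lies along collagen fibrils, 18.1-fold. The 4 collagens that fell were COL4A5, COL4A6, COL8A1 and COL17A1, by 1.45, 1.22, 1.37 and 1.26. Of these COL17A1 belongs to hemidesmosomes and COL4A5 and COL4A6 to epithelial basement membranes.

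Among 37 matrix and matricellular proteins 18 rose and 2 fell. IGFBP5, a secreted binder of insulin-like growth factors, rose from 3.58, 3.64 and 3.65 to 9.14, 8.97 and 9.64. SPARC, a collagen-binding glycoprotein, rose 36.9-fold and LTBP2, a microfibril protein of the latent TGFβ-binding family, 23.1-fold. IGFBP3, from the same family as IGFBP5, went the opposite way, from 13.17, 13.16 and 13.23 to 8.39, 7.88 and 8.14, a 33.1-fold decrease. Matrix proteolysis had the highest share of increases of all lists, 16 of 25, with 1 member lower. MMP2, a gelatinase, rose from 4.98, 5.60 and 5.54 to 12.48, 12.15 and 12.51, and MMP9, the other gelatinase, rose 36.2-fold. ADAM19, a membrane metalloproteinase, rose 57.8-fold.

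Of 9 fibroblast markers 5 rose in these cultures, with a mean marker signal of 4.72 to 4.94 in parental and 7.15 to 7.51 in mesenchymal arrays. Lung epithelial markers fell in 7 of 8 cases, from a mean of 12.4 to 12.5 to one of 10.4 to 10.6. Of 8 endothelial markers 1 rose. The 5 fibroblast markers that rose were the collagens COL1A1, COL1A2 and COL3A1, the proteoglycan LUM, at 3.93, and the membrane protease FAP, at 1.39. All of these but FAP were already counted in the collagen and matrix lists, so their rise is not a separate result. The other 4 fibroblast markers did not pass, with PDGFRA at 0.21, PDGFRB at 0.88, DCN at 0.56 and THY1 at -0.20. The labels name a cultured line in both states. In RNA from a whole culture, a change in the share of cells that express a gene and a change in RNA per cell cannot be told apart, and the part of the fibroblast markers in the matrix result was not tested.

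**Figure D3:**
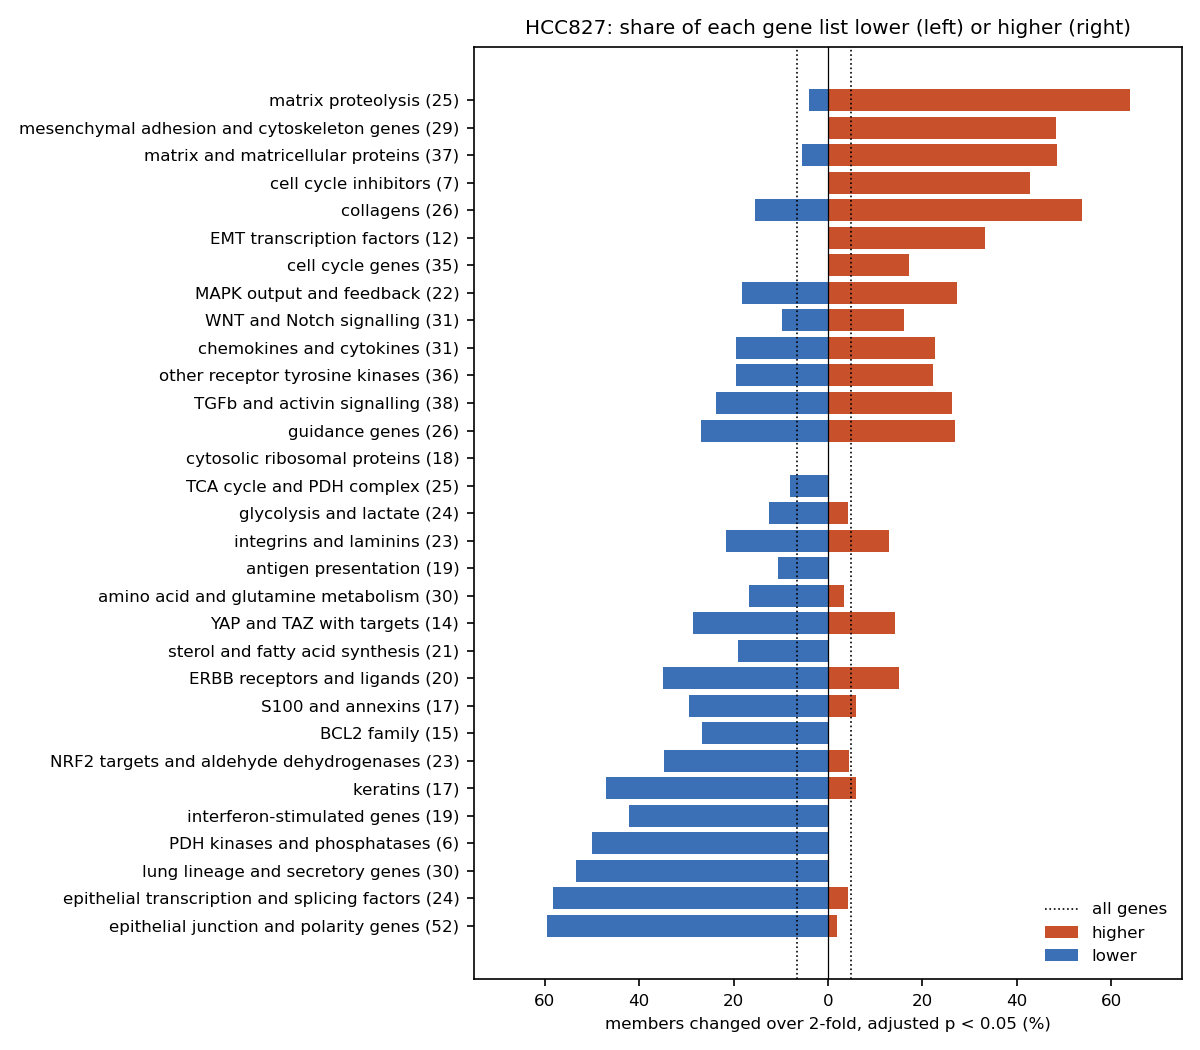
Share of measured members (%) of each of 31 gene lists that were broadly higher (orange, right) or lower (blue, left) in mesenchymal HCC827 cells, with the number of members in brackets and dotted lines at the shares over all genes (4.89% and 6.58%). Matrix proteolysis stands at the top and the epithelial junction and polarity genes at the bottom, and no ribosomal protein gene passed in either direction.

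Signalling genes changed in both directions. Of 38 TGFβ and activin pathway genes 10 rose and 9 fell. INHBA, the subunit of activin A, rose from 4.62, 5.25 and 4.96 to 11.92, 11.88 and 12.07, a 129-fold change. PMEPA1, which restrains SMAD signalling, rose 22.9-fold. All 4 ID factors, which bind and block basic helix-loop-helix factors and are classical targets of BMP signalling, fell. ID1 fell from 13.04, 12.77 and 12.71 to 8.94, 8.77 and 8.53, and ID4 from 10.04, 9.46 and 9.39 to 5.30, 5.09 and 5.41. ID3 and ID2 fell by 2.98 (SE 0.09) and 1.45 (SE 0.15). The states did not overlap for any of the 4, as for 51.2% of all genes.

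The ERBB system is of interest in a line that depends on EGFR. Of 20 measured receptors, ligands and regulators 7 fell and 3 rose. EGFR itself, with 12.82, 12.59 and 12.65 before and 12.0015, 12.01 and 12.08 after, fell by 0.65 (SE 0.08, adjusted p in limma 1.74e-06), which is 1.57-fold. Its partner ERBB3, a receptor that couples to PI3K, fell far more, from 11.66, 10.75 and 10.67 to 5.55, 4.96 and 5.64, or 49.9-fold. ERBB2 fell by 1.37 (SE 0.12). Of 10 ligands 5 fell and 2 rose. AREG, which encodes amphiregulin, fell from 12.26, 12.04 and 12.04 to 7.94, 7.42 and 7.82, and a near-identical copy listed as AREGB fell by 3.38, so the signal cannot be assigned to 1 locus with certainty. EREG, BTC and TGFA, which encode epiregulin, betacellulin and TGFα, fell by 3.85, 3.85 and 3.58, and NRG1, the neuregulin that binds ERBB3, by 2.45. The ligands that rose were EGF, by 2.74 (SE 0.15), and HBEGF, by 1.97 (SE 0.13).

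Downstream of these receptors, MAPK output and feedback genes showed no single direction, with 6 of 22 higher and 4 lower. SPRY1, a feedback inhibitor, fell 10.0-fold and EGR1, an immediate early transcription factor, 6.13-fold. CCND1, which encodes cyclin D1, rose 2.89-fold and ELK3, an ETS repressor, 2.47-fold. Of 36 measured genes for other receptor tyrosine kinases and their ligands 8 rose and 7 fell. FGFR1, a fibroblast growth factor receptor, rose from 5.18, 5.30 and 5.58 to 8.51, 8.50 and 8.69, and PDGFA, a platelet-derived growth factor, rose 5.30-fold. HGF, the ligand of MET, fell 11.4-fold from a low signal, and MERTK, a receptor of the family of AXL, fell 9.34-fold. AXL, a receptor often studied in EGFR inhibitor resistance, had 7.09, 7.41 and 7.20 before and 6.32, 6.30 and 6.95 after, a change of -0.71 (SE 0.14) that stayed under 2-fold.

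Other pathway lists were mixed. Of 31 WNT and Notch genes 5 rose and 3 fell, with WNT5B up 35.2-fold, the Notch ligand JAG1 12.4-fold and the Notch target HEY1 4.17-fold. Of 14 measured genes for YAP, TAZ and their targets 2 rose, CCN2 by 3.55 and ANKRD1 by 2.46, and 4 fell, among them F3 by 1.90 and WWTR1, which encodes TAZ itself, by 1.55. Of 26 axon guidance genes 7 rose and 7 fell, with the ephrin receptor EPHA4 up 23.9-fold and the semaphorins SEMA3E and SEMA3A and the ephrin EFNA1 down 8.33-fold, 5.92-fold and 6.91-fold. Chemokines and cytokines divided in the same way, 7 of 31 higher and 6 lower. IL11, a cytokine of the IL-6 family, rose from 5.24, 5.90 and 5.89 to 12.47, 12.37 and 12.24, ACKR3, a scavenging chemokine receptor, rose 81.1-fold and CCL2, which attracts monocytes, 11.7-fold. IL18 fell 12.5-fold.

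Secretory and lung lineage genes fell without exception among those that passed. Of 30 measured members 16 were lower and none higher, and the median change was -1.13. LCN2, an iron-siderophore binding protein secreted by epithelia, fell from 11.88, 11.29 and 11.54 to 5.45, 5.44 and 5.43. AGR2, a chaperone of mucin folding, fell from 11.35, 10.43 and 10.36 to 4.85, 4.22 and 5.16. Among mucins, MUC1 fell 44.4-fold and MUC16 26.8-fold. NAPSA, an aspartic protease used to identify lung adenocarcinoma, fell from 11.26, 10.76 and 10.60 to 6.31, 6.19 and 5.99. The decrease lay with the airway secretory genes and mucins, 14 of 21 lower, more than with surfactant and alveolar genes, 2 of 9, although a difference between these shares was not tested. Of 17 measured S100 and annexin genes 5 fell and 1 rose, with S100A14, S100P and S100A2 down 7.26-fold, 6.92-fold and 3.47-fold and ANXA6 up 5.09-fold. Parental replicate 1 was the highest parental array for S100P, at 8.87 against 7.50 and 7.33.

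Interferon-stimulated genes were lower as well, 8 of 19 with none higher and a median of -0.92. In A549 and NCI-H358 the median of this list was 0.12 and -1.95, so the decrease was not confined to HCC827. IFIT2 fell from 9.88, 8.84 and 9.02 to 6.05, 5.96 and 6.19, and OAS1, an antiviral synthetase, fell 5.69-fold. MX1, an antiviral GTPase, fell 3.54-fold. Parental replicate 1 gave the highest parental value for each of these 3 genes. Of 19 measured antigen presentation genes 2 fell, both chaperones of class II peptide loading, HLA-DMA at 5.72-fold and HLA-DMB at 2.73-fold, and none of 12 class I genes passed in either direction. Among the class I genes B2M was read by a dim probe set, which may understate a change. None of 18 cytosolic ribosomal protein genes reached 2-fold, and their changes lay between -0.32 and 0.14.

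Strict calls in the metabolic lists were all decreases, where 1.63% of all genes were strictly lower. They were 1 of 6 genes for pyruvate dehydrogenase kinases and phosphatases and 2 of 30 of amino acid metabolism. A further 3 were among the 23 NRF2 targets and aldehyde dehydrogenases. The glycolysis, TCA cycle and sterol lists held 0. PDK4, a kinase that turns off pyruvate dehydrogenase, had 8.39, 7.78 and 7.40 in parental and 3.59, 3.58 and 3.34 in mesenchymal arrays, a change of -4.36 (SE 0.22, adjusted p in limma 3.29e-11). Of the 6 genes for these kinases and the opposing phosphatases 3 fell, the others being PDK1 at 2.46-fold and PDP2 at 2.41-fold. Of 24 glycolysis genes 3 fell, namely PFKFB3, HK2 and GPI at 4.44-fold, 3.80-fold and 2.41-fold, and 1 rose, the glucose transporter SLC2A3. SLC2A3 was at 7.005, 7.11 and 7.62 after 6.32, 5.84 and 6.07, and it no longer reached 2-fold without mesenchymal replicate 3. In the TCA cycle 2 of 25 genes fell, IDH1 by 1.66 and SUCLG2 by 1.23, a share close to the 6.58% of all genes. Of 30 genes of amino acid metabolism 5 fell and 1 rose. ASS1, which makes argininosuccinate, fell 7.63-fold, PRODH, which oxidizes proline, 6.56-fold and the transporter SLC7A5 2.57-fold, while the transporter SLC1A4 rose 3.93-fold. Of 21 sterol and fatty acid genes 4 fell, SREBF1, SCD, FDFT1 and ACACA, by 1.99, 1.86, 1.43 and 1.08. Of 23 NRF2 targets and aldehyde dehydrogenases 8 fell and 1 rose, with the reductases AKR1B10, NQO1 and AKR1C3 down 12.5-fold, 6.74-fold and 4.14-fold and ALDH1A3 down 9.59-fold.

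Cell cycle genes did not fall in HCC827. The study reports slower growth of the TGFβ-treated cells than of the parental cells. How the RNA of these genes relates to growth was not tested. Of 35 genes of S phase and mitosis 6 were broadly higher and none lower, and at an adjusted p below 0.05 in limma without a limit on size 24 were higher and 0 lower, where 45.8% of all genes passed in either direction. BIRC5, which encodes survivin, rose from 7.07, 7.33 and 7.39 to 8.85, 8.83 and 8.65, and CENPF, a kinetochore protein, from 8.14, 7.92 and 7.93 to 9.48, 9.40 and 9.32. MCM5 and MCM3, subunits of the replicative helicase, rose by 1.29 (SE 0.10) and 1.20 (SE 0.10). Among cell cycle inhibitors 3 of 7 rose too, CDKN2C by 2.28, CDKN1A by 1.72 and CDKN1C by 1.34, and none fell. Of 15 BCL2 family genes 4 fell and none rose. BCL2A1 fell by 1.71 (SE 0.16) and BID by 1.54 (SE 0.17), while BIK and BCL2L1, at -1.06 and -1.03, lay at the edge of the 2-fold limit, and 2 genes were lower when mesenchymal replicate 1 or parental replicate 3 was left out.

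The question that followed was what HCC827 did beyond the other lines. Under the strict rule 378 genes (1.90%) changed in A549 and 430 (2.17%) in NCI-H358. Of the 585 genes of HCC827, 48 passed in the same direction in both other lines, 64 in A549 but not NCI-H358, 137 in NCI-H358 but not A549, and 336 in neither. Those 336 were 151 higher and 185 lower genes. A call in one line and its absence in another is no test, so the change in HCC827 was set against that in each other line within the same fit. The difference from A549 passed an adjusted p of 0.05 for 42.2% of all genes and the difference from NCI-H358 for 37.9%. A strictly called gene was taken as particular to HCC827 when both differences passed in the direction of its own change, and 395 genes (1.99%) met this, 185 higher (0.932%) and 210 lower (1.06%). The term says that the change was larger in HCC827, not that it was absent elsewhere. Both differences use the same 6 HCC827 arrays, so their joint count is a description. Of the 336 genes called in neither other line 319 were particular.

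Starting levels in the other lines are set beside these counts, since a gene that is already dim has little signal to lose. Their part in the counts was not tested. Of the 210 particular lower genes, parental A549 was already at or below the mean that mesenchymal HCC827 cells reached for 90, and parental NCI-H358 for 44. At least 1 of the lines was so for 113 genes and both for 21. Of the 185 particular higher genes, parental A549 was already at or above the mesenchymal HCC827 level for 25 and parental NCI-H358 for 10, with at least 1 line so for 31. Both other parental lines started within 1 log2 unit of parental HCC827 for 15 of the lower and 48 of the higher genes.

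The 12 lowest and 12 highest genes called in neither other line are given next, and since they were picked for the size of their change and for missing the strict rule elsewhere, their values are a description. LCN2 fell by 6.13 (SE 0.12) in HCC827 and moved by -0.13 in A549 and -0.40 in NCI-H358, whose parental means of 5.30 and 5.25 were already below the 5.44 of mesenchymal HCC827 cells. SFTA2, a secreted lung protein, was at 12.32, 12.15 and 12.04 before and 6.55, 5.87 and 6.12 after in HCC827, and was dim throughout in A549 and NCI-H358, with parental means of 3.23 and 3.34. PDZK1IP1, a membrane-associated protein that binds PDZ scaffolds, fell by 5.78 (SE 0.13) against increases of 1.26 in A549 and 0.48 in NCI-H358, which started at 6.63 and 4.18. UCA1, a long noncoding RNA, fell by 5.36 (SE 0.14) and ALOX5, the lipoxygenase that starts leukotriene synthesis, by 4.73 (SE 0.16), and both were dim in the other parental lines, UCA1 at 4.38 and 4.54 and ALOX5 at 2.96 and 2.74. Also among the 12 lowest were MUC1, IGFBP3, FRAS1, ABCA12, MUC16, NAPSA and ARL14, at -5.47 to -4.70. IGFBP3 was bright in all parental lines, at 13.18 in HCC827, 12.40 in A549 and 9.80 in NCI-H358, and fell by 1.39 and 1.44 in the other lines.

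Among the genes that rose, EDNRA, the endothelin A receptor, rose from 4.52, 4.08 and 4.06 to 10.10, 10.45 and 10.64, and moved by 0.03 in A549, where it was dim, and 0.64 in NCI-H358, whose parental cells already stood at 8.86. COL10A1, a short-chain collagen of hypertrophic cartilage, rose from 2.67, 2.58 and 2.68 to 7.62, 8.15 and 8.85, and stayed dim in A549 and NCI-H358, with changes of 0.27 and 0.07. HTRA1, a secreted serine protease, rose by 6.09 (SE 0.18) against 1.42 from a parental 9.27 in A549 and 1.29 from 4.65 in NCI-H358. LPAR3, a receptor of lysophosphatidic acid, rose by 4.67 (SE 0.12) against 0.36 and -0.19. Also among the 12 highest were CLU, GPR183, COL5A1, ZEB2, TMSB15A, LTBP2, ILDR2 and AFAP1L2, at 4.47 to 6.67. ZEB2 moved by -0.46 in A549 and 2.20 in NCI-H358.

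**Figure D4:**
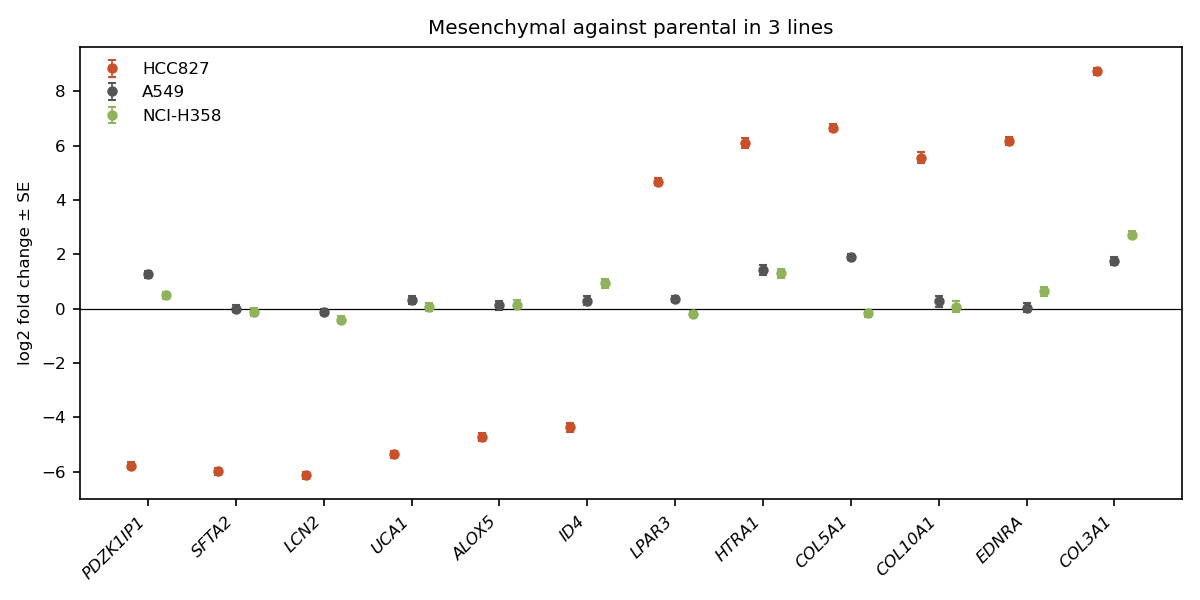
Log2 fold change of mesenchymal against parental cells, with its standard error in limma, for the 6 lower and 6 higher genes with the largest smaller difference from the other lines. HCC827 (orange) lies between -6.13 and -4.37 or between 4.67 and 8.74, while A549 (grey) and NCI-H358 (green) lie between -0.40 and 2.73.

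Which functional groups held the particular genes can be given by count, beside 0.932% higher and 1.06% lower over all genes. Not every list with such genes is given here. Of 37 matrix and matricellular proteins 8 were particular and higher and 1 was particular and lower. Of 25 matrix proteolysis genes 6 were particular and higher, and of 12 EMT transcription factors 2, with 0 lower in either list. Of 26 collagens 9 were particular and higher, namely COL3A1, COL5A1, COL1A1, COL12A1, COL6A1, COL6A2, COL6A3, COL7A1 and COL27A1. Some of these also rose elsewhere, COL1A1 by 3.42 in A549 and 3.65 in NCI-H358, COL12A1 by 2.21 and 2.94, and COL3A1 by 1.76 and 2.73, and for them the difference is one of size. Of 30 lung lineage and secretory genes 7 were particular and lower, namely LCN2, MUC1, MUC4, MUC16, MUC20, NAPSA and PIGR. AGR2 was not among them, as it fell by 5.60 in A549 and 6.05 in NCI-H358. Of 52 junction and polarity genes 8 were particular and lower. RAB25 and ESRP1 fell in NCI-H358 as well, by 6.17 and 7.20, whereas parental A549 was already dim for both, at 4.69 and 3.53. CDH1 fell by less in HCC827 than in A549 or NCI-H358, where the changes were -5.81 and -3.94, with adjusted p for the differences in limma of 5.01e-09 and 7.52e-04.

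The ID factors and the cell cycle genes also differed between lines. The 4 ID factors had a median change of -3.54 in HCC827, 0.43 in A549 and 0.98 in NCI-H358. For each of the 4 the change in HCC827 was lower than in A549 and lower than in NCI-H358, where 19.5% and 21.1% of all genes showed this. ID1 rose by 0.57 in A549 and fell by 0.59 in NCI-H358, so that for this gene HCC827 and NCI-H358 differed in size and not in direction, and ID4 moved by 0.29 and 0.93. These genes were not dim in the other parental lines, at 12.2 and 12.6 for ID1 and 7.66 and 9.89 for ID4. Cell cycle genes had a median change of 0.42 in HCC827, -0.70 in A549 and -0.38 in NCI-H358. At an adjusted p below 0.05 in limma 32 of 35 fell in A549, where 26.8% of all genes fell, and 24 fell and 3 rose in NCI-H358, where 19.8% fell and 21.5% rose. The change in HCC827 was above that in A549 for 34 of 35 members, against 22.7% of all genes, and above that in NCI-H358 for 33, against 16.8%. Members of this list are known to rise and fall together with the share of dividing cells, so they are not independent counts. The arrays did not measure growth, and the counts do not stand for a growth rate.

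**Figure D5:**
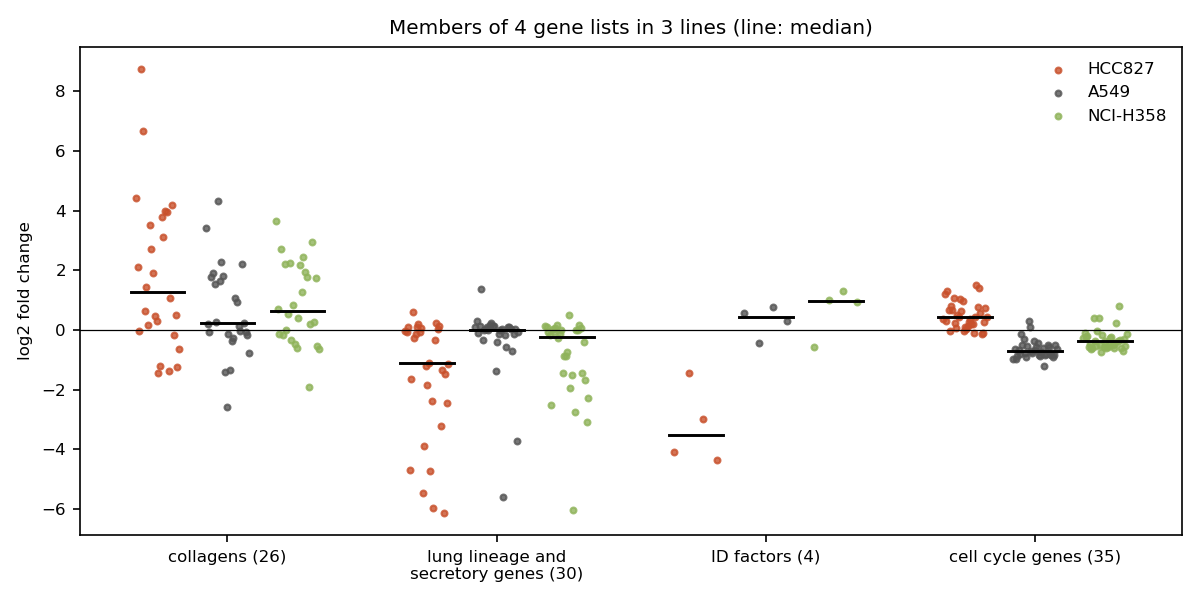
Log2 fold change of mesenchymal against parental cells for each member (point) of 4 gene lists in HCC827 (orange), A549 (grey) and NCI-H358 (green), with black lines at the medians and the number of members in brackets. The medians of HCC827 were 1.26 for collagens, -1.13 for lung lineage and secretory genes, -3.54 for ID factors and 0.42 for cell cycle genes.

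Several genes already named moved in opposite directions in other lines. QKI rose by 3.39 in HCC827 and by 2.48 in NCI-H358 and fell by 2.49 in A549. TGFA fell in HCC827 and NCI-H358, where it changed by -4.23, and rose by 2.80 in A549. NRG1 moved by 0.98 in A549 and -0.14 in NCI-H358 beside its decrease in HCC827. EGR1 rose by 2.02 in A549 and hardly moved in NCI-H358, at -0.05. EFNA1, lower in HCC827 and NCI-H358, rose by 2.65 in A549. BCL2A1, a pro-survival BCL2 relative that fell in HCC827, rose by 1.99 in A549 and 0.85 in NCI-H358. These genes were picked for their opposite directions, so the values are a description.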

How the data were processed

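Total RNA of parental and TGFβ-treated cells was hybridized to Affymetrix U133 Plus 2.0 arrays, and the authors normalized them by RMA and deposited log2 values of 1 probe set for each of 19849 genes. The rule for picking that probe set is not given in the sources used here, and the table names no genome build. Of the gene IDs 19326 matched the RefSeq table (GRCh38.p14), which gave current symbols and promoters. Column titles gave each array's line and state, and 0 columns had no sample.

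Mesenchymal and parental HCC827 cells were compared with limma 3.58.1 in R 4.3.3 (lmFit, eBayes). The study also names limma for its arrays, and the strict rule takes over its cutoffs for fold and adjusted p. The model held the 18 arrays as 6 groups without covariates, with Benjamini-Hochberg adjustment over all genes. Differences from A549 and NCI-H358 were contrasts in that fit. The 3 arrays per group limit the precision. The fit was tested on simulated data. Alternatives were other thresholds and signal limits, HCC827 arrays only, an intensity trend, a robust prior, array weights, median centring, a second quantile normalization, Student's t-test, leaving out dim probe sets, and dropping each array in turn. Student's t-test is the study's default for its other data, not for the arrays.

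The comparison, the gene lists and the rule for named genes were chosen with earlier results of these data known. Named were the EMT markers with EGFR and PDK4, the 12 highest and 12 lowest genes called in neither other line, the 4 largest broad changes of each list, the 6 highest and 6 lowest genes by difference from the other lines, the 5 brightest genes switched on and off, and promoters with the most E-box matches. Other members given with values, such as ID2, ID3, QKI, TGFA, NRG1, EGF, HBEGF, AXL, ERBB2, NKX2-1, TWIST1, PRRX1, DSC3, AP1M2, PATJ and the collagens that fell, were chosen after their values were seen. Items withheld from this text are not reported here.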

Additional observations from a re-analysis of the deposited data

Results flagged for a closer look

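These 12 genes were singled out because their change in HCC827 differed from that in both other lines, by limma contrasts with an adjusted p below 0.05, by more than any other particular gene of the same direction. Since they were selected for this difference, the values are descriptions. Taking the smaller of the 2 differences on the log2 scale, the HCC827 change was lower by -6.26 for PDZK1IP1, -5.87 for SFTA2, -5.73 for LCN2, -5.42 for UCA1, -4.85 for ALOX5 and -4.66 for ID4. It was higher by 4.32 for LPAR3, 4.67 for HTRA1, 4.77 for COL5A1, 5.29 for COL10A1, 5.54 for EDNRA and 6.02 for COL3A1. Several of these genes started at another level in the other lines than in HCC827. In parental A549 and NCI-H358 the mean signal was 3.23 and 3.34 for SFTA2, 5.30 and 5.25 for LCN2, 4.38 and 4.54 for UCA1 and 2.96 and 2.74 for ALOX5, at or below the level of mesenchymal HCC827 cells. A gene this dim has little signal to lose, and the part of starting levels in these differences was not tested. EDNRA already stood at 8.86 in parental NCI-H358, and COL5A1 and HTRA1 at 9.71 and 9.27 in parental A549.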

How the results depend on the processing

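Counts of strict and broad calls stayed within 1.5 times of those reported when only the HCC827 arrays were fitted, and with an intensity trend, a robust prior, array weights, median centring, a second quantile normalization or dim probe sets left out. With 1 array left out at a time they ranged from 250 to 267 strictly higher, 303 to 333 strictly lower, 952 to 993 broadly higher, 1239 to 1375 broadly lower, 175 to 187 particular and higher, and 199 to 222 particular and lower. A fold limit of 2 in place of 5 gave 907 higher and 1212 lower genes, and a limit of 10 gave 116 and 117. Student's t-test on the 6 arrays, which has few degrees of freedom, gave 1 higher and 0 lower genes at an adjusted p below 1e-05 with a change above 5-fold, but 262 and 323 at an adjusted p below 0.05 and 262 and 325 at an unadjusted p below 0.05. Switched genes depended on the limits: with a dim limit of 4.5 there were 39 on and 29 off, with a dim limit of 5.5 there were 109 off, and with a bright limit of 8 there were 31 on and 16 off.

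None of the named genes reversed under these alternatives. Counted over pairs of a named gene and an alternative, the broad call was kept in 1999 pairs and lost in 11. The lost calls concerned SNAI2 (also by Student's t-test), KRT20 (by the t-test), SLC2A3, and BIK and BCL2L1, which fell below 2-fold also with median centring. Lone calls of a list that came or went with 1 array were the NRF2 target that rose, lost without parental replicate 1, and an antigen presentation gene higher without mesenchymal replicate 2 or parental replicate 1. The count of cell cycle genes with a change above that in A549 was 34 and above that in NCI-H358 31 to 34 over normalizations and arrays left out, an alternative added after seeing the data. Counts of strict calls within the lists were less stable, with 39 checks moved and 23 the same. The other checks of the lists gave 6 moved and 428 the same. No paired analysis was possible because the labels carry no replicate numbers.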

Other observations

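Of the 68 genes switched on in HCC827, 53 were particular to it and 38 passed the strict rule in neither other line. Of the 51 switched off, 38 were particular and 24 passed in neither other line. KANK4 rose by 4.66 in A549 and 2.92 in NCI-H358 beside 8.83 in HCC827. PLPP4 rose by 6.43 in A549 and moved by 0.50 in NCI-H358, and HS3ST3B1, a sulfotransferase of heparan sulfate, rose by 6.98 and 5.49 in these lines beside 6.70 in HCC827. Among genes switched off, FGB fell by 4.29 in A549 and moved by -0.07 in NCI-H358, whereas MPZL2, an epithelial adhesion protein, moved by 0.13 in A549 and fell by 6.18 in NCI-H358. TSPAN8 and SHOC1 fell by 2.41 and 2.40 in NCI-H358 and moved by 0.21 and -0.01 in A549.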
